A study of Mus musculus with 6 samples.

Results

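The cytosolic ribosomal protein genes were described in mouse macrophages treated with BW723C86 and in macrophages given DMSO, the solvent. BW723C86 activates 5-HT2B, a serotonin receptor coupled to G proteins. Members were the protein-coding genes with a symbol made of Rpl or Rps and a digit, together with Rplp0, Rplp1, Rplp2 and Rpsa, with Rps6k kinases and symbols carrying -ps left out. The rule found 85 of the 28822 genes in the count table, and all 85 passed the filter on low counts. Of these, 77 encode standard proteins of the ribosome, 46 of the large subunit and 31 of the small subunit, and are called core genes here. The other 8 were Rpl3l, Rpl7l1, Rpl22l1, Rpl36al, Rpl39l, Rps27l and Rps27rt, which are relatives of core genes, and Rps19bp1, which is named for binding Rps19 and is no ribosomal protein. Fau and Rack1, which also encode ribosomal proteins, have other symbols and are given apart from the members.

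The 6 samples were 3 libraries treated with BW723C86 and 3 treated with DMSO. The title of the series names bone marrow-derived macrophages (BMDMs) as the cells, whereas the design text allows BMDMs or BV2 microglia. All 6 samples shared a Transwell insert that separated these cells from HT22 cells, a mouse hippocampal neuronal line, kept without oxygen and glucose for 2 h beforehand. The labels give HT22 as a second cell type of each sample. Genotype, strain, age, dose and treatment length do not appear in the labels. Nor is it stated that each replicate was its own culture or animal, so a p-value here measures the spread of these libraries, which may be technical.

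Ribosomal proteins coat the ribosomal RNA of both subunits, and cells make them in nearly equal numbers. Their mRNAs are among the most abundant of a mammalian cell and start with a short run of pyrimidines, the 5′ terminal oligopyrimidine (TOP) tract. Through this tract the kinase complex mTORC1 and the RNA-binding protein LARP1 set how much of these mRNAs is translated and how stable they are. Activation of macrophages changes which mRNAs they translate.

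Total counts were 59971346, 72562020 and 60647747 in BW723C86 libraries, against 75931615, 58841307 and 75687683 in DMSO libraries. All 8 macrophage markers listed were tested, and their summed level was 32709 to 33918 CPM (counts scaled by library size, as edgeR gives them) in BW723C86 libraries and 37233 to 38082 CPM in DMSO libraries. Lyz2 made up most of that sum, and singly 4 of the 8 rose, 3 fell and 1 did not pass: Csf1r, at 1015 to 1097 CPM with BW723C86 and 735 to 739.7 CPM with DMSO, Mertk, Cd68 and Mrc1 rose, and Itgam, at 953 to 1021 CPM with BW723C86 and 2063 to 2115 CPM with DMSO, Adgre1 and Lyz2 fell. Of the 8 neuronal markers listed, 5 were in the count table, without Rbfox3, Snap25 and Gap43, and 1 was tested. Map2 and Nefl were at 0 in all 6 libraries. The 5 present summed to at most 0.924 CPM in BW723C86 libraries and 0.617 CPM in DMSO libraries. Markers of several other bone marrow cell types moved with treatment. Erythroid markers did not pass: 2 of the 5 listed were tested, and sums were 0.855 to 1.32 CPM with BW723C86 and 0.216 to 0.617 CPM with DMSO. All 6 tested neutrophil genes of 8 listed were lower, with summed levels of 702 to 806 CPM in BW723C86 libraries and 2571 to 2648 CPM in DMSO libraries. Mmp8 alone made up most of that sum, at 670 to 779 CPM with BW723C86 and 2364 to 2451 CPM with DMSO. All 5 monocyte genes were lower as well, at 173 to 189 CPM with BW723C86 and 671 to 676 CPM with DMSO. Mast cell markers, nearly all of it Cpa3, summed to 11.1 to 13.7 CPM with BW723C86 and 51.7 to 56.3 CPM with DMSO. All 3 tested lymphocyte markers of 6 listed were lower, with sums of 0.292 to 0.436 CPM with BW723C86 and 1.99 to 2.98 CPM with DMSO. Proliferation markers summed to 383 to 384 CPM with BW723C86 and 385 to 399 CPM with DMSO, but singly 3 of the 6 rose, 2 fell and 1 did not pass, with Mki67 at 58.0 to 61.3 CPM with BW723C86 and 89.7 to 97.8 CPM with DMSO. The part of these marker shifts in the results below was not tested, and in bulk RNA fewer cells of a type and less RNA per cell cannot be told apart. BW723C86 replicate 2 lay farthest from its group, and calls of named genes that change without it are given beside them.

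Promoters of members toward both ends of the range of fold changes are shown, so that the pyrimidine tracts and other elements named below can be seen. RefSeq windows on build GRCm38.p6, 250 bases before to 50 bases after the annotated start, could be used for 57 of the 77 core genes. The printed stretch runs from 70 bases before the start through the first 30 transcribed bases, 5′ to 3′ on the strand of the gene. Capitals mark CCGGAAG, a core of ETS factor sites, AAGATGGC, a core of YY1 sites, and the pyrimidine tracts CTTTCC and CTCTTTC, which can overlap each other, each on either strand. Both sets were drawn from the 49 core genes with exactly 1 usable window. Some members nearer the ends are therefore not shown, among them Rps14, Rpl30 and Rplp1 at the low end. At the high end, Rpl3, Rpl17 and Rpl10a are among those missing. The first set holds the 5 of these 49 genes with the most negative fold changes.
Rpl39, chrX:37085193-37085292, minus strand: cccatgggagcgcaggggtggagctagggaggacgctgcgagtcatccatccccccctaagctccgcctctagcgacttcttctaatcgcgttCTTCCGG
Rps10, chr17:27635215-27635314, minus strand: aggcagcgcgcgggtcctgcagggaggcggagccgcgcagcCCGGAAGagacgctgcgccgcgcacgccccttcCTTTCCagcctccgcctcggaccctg
Rpl36a, chrX:134585584-134585683, plus strand: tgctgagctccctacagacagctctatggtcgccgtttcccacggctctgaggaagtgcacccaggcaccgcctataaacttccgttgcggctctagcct
Rpl18, chr7:45718001-45718100, plus strand: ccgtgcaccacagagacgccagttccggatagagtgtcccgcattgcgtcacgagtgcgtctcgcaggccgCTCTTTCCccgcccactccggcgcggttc
Rpl38, chr11:114668510-114668609, plus strand: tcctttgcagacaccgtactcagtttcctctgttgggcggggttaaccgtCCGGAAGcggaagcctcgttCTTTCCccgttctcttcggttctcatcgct
The second set holds the 5 of these 49 genes with the most positive fold changes, none of which passed the test.
Rpl10, chrX:74270746-74270845, plus strand: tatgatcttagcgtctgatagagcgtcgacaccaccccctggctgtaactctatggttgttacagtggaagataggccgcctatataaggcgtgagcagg
Rpl28, chr7:4792895-4792994, plus strand: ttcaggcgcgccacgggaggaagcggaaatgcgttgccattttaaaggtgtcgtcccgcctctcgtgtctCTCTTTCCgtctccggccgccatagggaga
Rpl6, chr5:121204431-121204530, plus strand: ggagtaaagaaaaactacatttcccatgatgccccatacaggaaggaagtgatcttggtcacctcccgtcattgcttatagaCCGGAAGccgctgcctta
Rps6, chr4:86857338-86857437, minus strand: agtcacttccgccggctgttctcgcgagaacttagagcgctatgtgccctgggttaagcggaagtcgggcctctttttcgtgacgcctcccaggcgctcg
Rps13, chr7:116334161-116334260, minus strand: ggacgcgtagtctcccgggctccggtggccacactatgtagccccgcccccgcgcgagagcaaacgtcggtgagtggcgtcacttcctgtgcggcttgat
CCGGAAG stands in Rps10 and Rpl38 of the first set and in Rpl6 of the second on the strand of the gene, and on the opposite strand in Rpl39. CTTTCC stands on the strand of the gene in Rps10, Rpl18 and Rpl38 of the first set and in Rpl28 of the second. No letters are in capitals in the stretches of Rpl36a, Rpl10, Rps6 and Rps13, which says only that these exact letters do not occur there. Capitals mark the letters anywhere in a stretch and do not show whether a TOP tract stands at the start. In Rps6, for example, the pyrimidine run ctctttttc begins at the annotated start without capitals.

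Over the full windows, CCGGAAG on either strand was found in 40.4% of the 57 core promoters, against 9.12% of all 27025 RefSeq windows and 18.4% of the 10503 windows of tested genes. TCTCGCGA, a CG-rich element known from housekeeping promoters, was found in 17.5% of core promoters, against 1.08% of all windows and 2.26% of those of tested genes. On the strand of the gene, CTTTCC was in 36.8% of core promoters, 14.0% of all windows and 14.7% of those of tested genes, and CTCTTTC in 21.1%, 3.91% and 3.90%. On either strand these tracts were in 47.4% and 29.8% of core promoters, against 26.3% and 8.01% of all windows, and 26.3% and 7.27% of those of tested genes. CACGTG, the E-box read by MYC and its partners, was in 8.77% of core promoters, which is above the 7.24% of all windows and below the 10.2% of tested-gene windows. TATAAA was in 8.77% of core promoters, below the 14.2% of all windows and above the 7.15% of tested-gene windows, so neither has a direction that holds for both backgrounds. AAGATGGC was in 7.02% of core promoters, 2.88% of all windows and 4.77% of tested-gene windows. Among the core promoters, CCGGAAG was in 13 of the 37 of genes that were lower with BW723C86 and in 10 of the 20 of the other genes. CTTTCC on the strand of the gene was in 17 of those 37 and in 4 of those 20, and CTCTTTC in 7 of 37 and 5 of 20. These shares are descriptions of letters in a window, with no test.

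Ribosomal protein mRNA was lower with BW723C86. Of the 85 members, 55 fell, 1 rose and 29 did not pass the test, which was edgeR's quasi-likelihood test with Benjamini-Hochberg adjustment over 15567 genes and a threshold of 0.05. Over all tested genes, 20.7% were called lower and 21.3% higher, or 42.0% in either direction, whereas 64.7% of members were called lower and 1.18% higher. The members' median log2 fold change, BW723C86 over DMSO, was -0.26, against 0.00 over all tested genes. Most members are abundant, and of the 1801 tested genes whose mean reached 100 CPM 28.9% were called lower and 37.5% higher. In a test against a null fold change of 1.2, 23 members were lower and 0 higher, and 10.3% of all tested genes were lower by that test.

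The shift was broad and modest in size. Of the 77 core genes, 52 fell, 1 rose and 24 did not pass, and 69 had a negative fold change. Core fold changes ran from -0.62 to 0.29 on the log2 scale, with a median standard error (SE) of 0.06, and the median difference amounted to -17.5% in CPM. The BW723C86 libraries were all below the DMSO libraries for 62 members and all above for 1, and they overlapped for 22. Over all tested genes the corresponding shares were 26.0% below and 26.3% above. Each of the 56 members past the test had groups that did not overlap, and so had 7 that did not pass it.

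**Figure D1:**
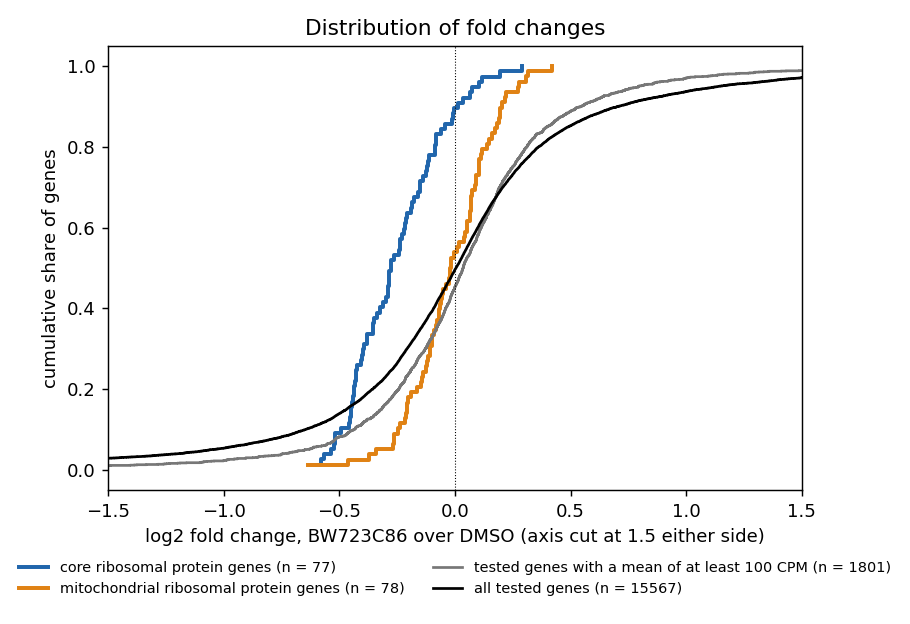
Cumulative share of genes (y axis, 0 to 1) by log2 fold change of BW723C86 over DMSO (x axis, drawn between -1.5 and 1.5). Except at its lower end, the curve of the 77 core ribosomal protein genes lies left of those of the 78 mitochondrial ribosomal protein genes, the 1801 tested genes whose mean reached 100 CPM and all 15567 tested genes, with a median of -0.28 for core genes and 0.00 for all tested genes.

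As a share of the library the same shift was visible without any fit. Members took 4.56%, 4.12% and 4.43% of all counts in the BW723C86 libraries, against 5.41%, 5.45% and 5.30% in the DMSO libraries. The mean shares differed by -1.01 percentage points, and every BW723C86 library lay below every DMSO library. Large-subunit genes took 2.59%, 2.33% and 2.51% with BW723C86, against 3.01%, 3.05% and 2.95% with DMSO. Small-subunit genes took 1.94%, 1.76% and 1.89% with BW723C86, against 2.36%, 2.36% and 2.31% with DMSO. Both subunits thus held a smaller share in each treated library. The share of mitochondrially encoded genes moved the same way, at 3.03%, 3.40% and 2.91% with BW723C86, against 4.52%, 4.49% and 4.55% with DMSO. With these left out of the total, the difference in the members' share was -1.13 percentage points.

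Library by library, the median core gene stood at -0.21, -0.36 and -0.26 on the log2 scale relative to the DMSO mean in BW723C86 replicates 1, 2 and 3, and at 0.01, 0.02 and -0.03 in DMSO replicates 1, 2 and 3. Replicate 2 was the lowest of the 3 BW723C86 libraries for 58 of the 77 core genes, a share of 75.3%, whereas it was the lowest for 37.8% of all tested genes. A total of 58, 74 and 64 core genes lay below every DMSO library in BW723C86 replicates 1, 2 and 3. For core genes the treated libraries also differed more among themselves, with a median coefficient of variation of 7.55% with BW723C86 and 2.48% with DMSO. Neither the counts for single libraries nor the coefficients were computed over all tested genes, so they have no background beside them. Without replicate 2, 60 members were lower and 5 higher, and the median log2 fold change was -0.25.

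**Figure D2:**
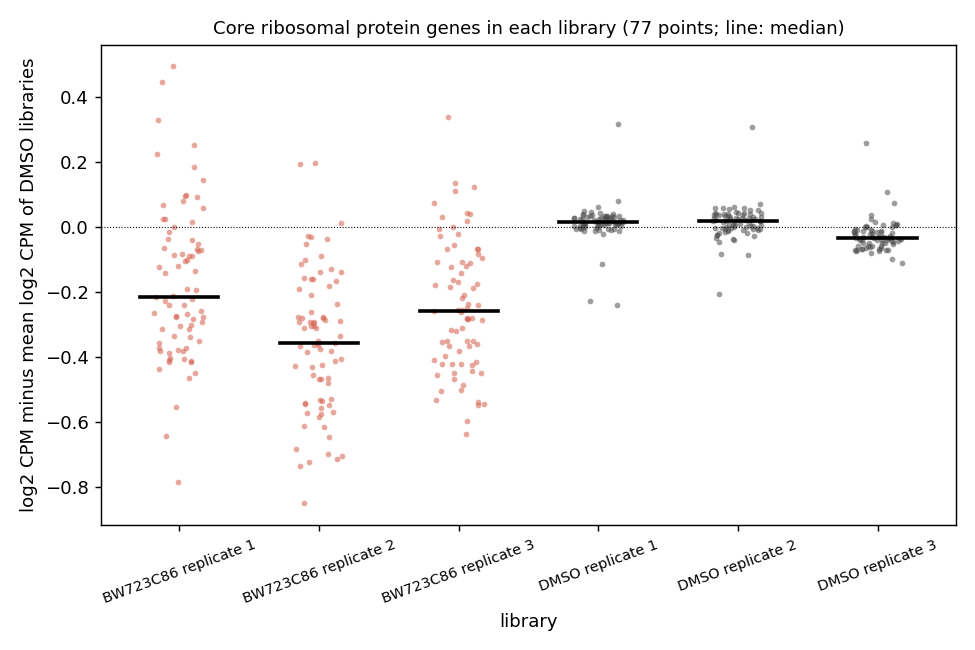
Level of each of the 77 core genes (points) in each library (x axis), as log2 CPM minus the mean log2 CPM of the DMSO libraries (y axis); black lines are medians. Medians are -0.21, -0.36 and -0.26 in the BW723C86 libraries and between -0.03 and 0.02 in the DMSO libraries.

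Among core genes, the level in BW723C86 replicate 2 relative to the other treated libraries varied with base composition. Over the 77 core genes, log2 CPM of replicate 2 minus the mean of replicates 1 and 3 had a median of -0.18. Its Spearman correlation with the GC content of the annotated transcript was -0.60 (Pearson -0.49). The points of this correlation share 1 library and its depth, and it is given as a description. It was not computed over all tested genes, so it has no background beside it. The fold change between the groups had a Spearman correlation of -0.00 with GC content (Pearson -0.02), 0.26 with transcript length and 0.26 with mean CPM. Core transcripts had a median GC content of 51.8% and a median length of 774 bases, against 50.3% and 2472 bases over all tested genes. With per-library trends of GC content and length removed, 56 members were lower and 2 higher.

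**Figure D3:**
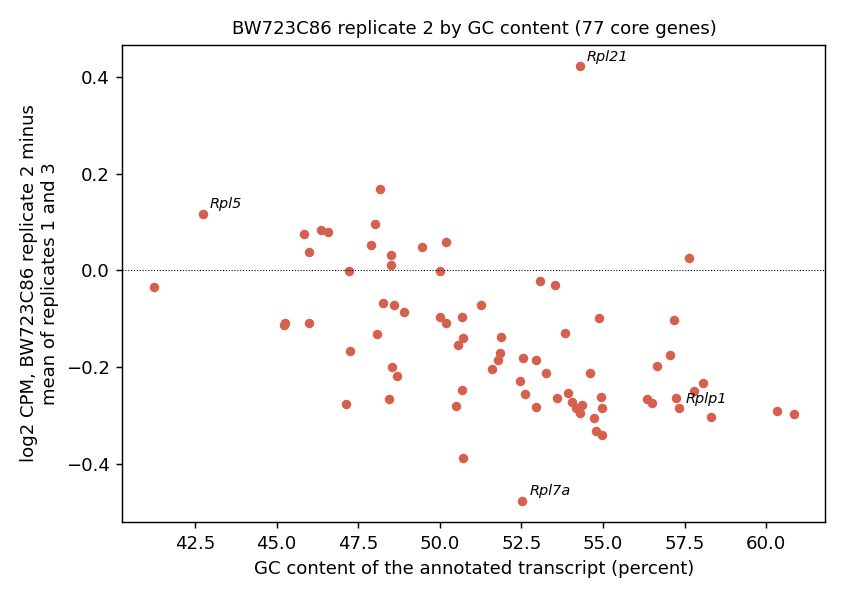
Log2 CPM of BW723C86 replicate 2 minus the mean of replicates 1 and 3 (y axis) against the GC content of the annotated transcript in percent (x axis) for the 77 core genes. Genes of higher GC content tend to lie lower (Spearman correlation -0.60), and most points are below 0.

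Genes of both subunits fell, and the difference between the subunits was not tested. Of 31 small-subunit genes, 25 fell and 0 rose, with a median log2 fold change of -0.29. Of 46 large-subunit genes, 27 fell and 1 rose, with a median of -0.24. Grouped by place on the ribosome after the values were seen, and so with no test, all 14 genes for proteins of the small subunit's head were lower (median -0.34, from -0.53 to -0.19). Of the 17 genes for the rest of that subunit, 11 were lower (median -0.24), and Rps2, Rps4x, Rps6, Rps13 and Rps26 were among those that did not pass.

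**Figure D4:**
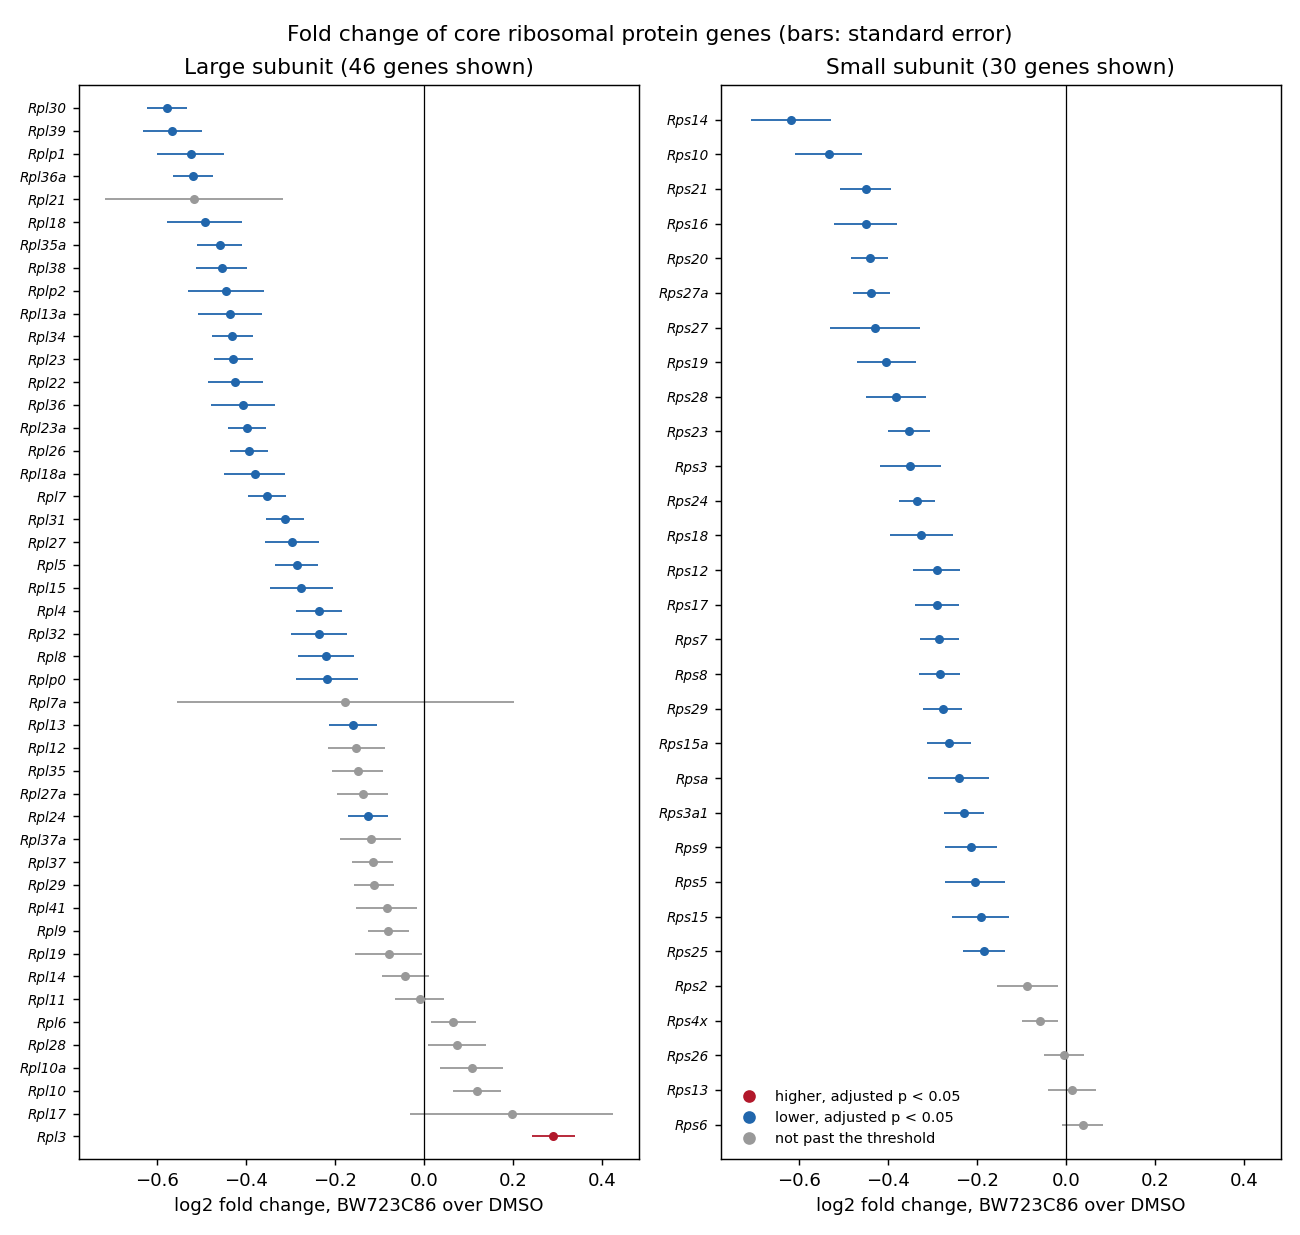
Log2 fold change of BW723C86 over DMSO (x axis) of the core genes shown, with the large subunit on the left and the small subunit on the right; bars are 1 SE and colours give the call at an adjusted p of 0.05. Values run from -0.62 for Rps14 to 0.29 for Rpl3, and the bars of Rpl7a, Rpl17 and Rpl21 are the widest.

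Rps14 had the most negative fold change of all 85 members. It encodes a protein of the small subunit's platform, and its partial loss in human 5q- syndrome impairs red cell formation. Rps14 was at 895, 673 and 800.4 CPM in BW723C86 libraries, against 1222, 1261 and 1155 CPM in DMSO libraries, with no overlap and with replicate 2 lowest. Its log2 fold change was -0.62 (adjusted p = 0.00033, SE 0.09). Rps10, a head protein at the mRNA entry side, was at 439, 344 and 403 CPM with BW723C86, against 582, 590.01 and 545 CPM with DMSO, a log2 fold change of -0.53 (adjusted p = 0.00012, SE 0.08). In both genes each treated library was below each DMSO library.

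Other head protein genes had smaller fitted changes. Rps19, the gene most often mutated in human Diamond-Blackfan anaemia, a failure of red cell production, was at 500.5, 404 and 469.7 CPM with BW723C86, against 616, 616 and 586 CPM with DMSO, a log2 fold change of -0.40 (adjusted p = 0.00033, SE 0.07). Rps3, which lines the mRNA entry channel, was at 1421, 1139.7 and 1320.2 CPM with BW723C86, against 1655, 1687 and 1606 CPM with DMSO, a log2 fold change of -0.35 (adjusted p = 0.0011, SE 0.07). With GC and length trends removed and the replicate number as a block, this call was lost (adjusted p = 0.056). Rps27a, made as a fusion with ubiquitin that is cut after translation, varied little within each group. Its levels were 484, 479 and 467 CPM with BW723C86, against 653, 638 and 646 CPM with DMSO, and its log2 fold change was -0.44 (adjusted p = 2.3e-06, SE 0.04). The remaining head genes that fell included Rps20 (log2 fold change -0.44), Rps16 (-0.45) and Rps28 (-0.38), with Rps15 (-0.19) and Rps25 (-0.19), which is needed for initiation at some viral internal entry sites, at the small end.

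Rpsa, which encodes the small-subunit protein also known as the laminin receptor, was among the most abundant members. It was at 2154, 1719 and 1983 CPM with BW723C86, against 2290.04, 2358 and 2277 CPM with DMSO, a log2 fold change of -0.24 (adjusted p = 0.012, SE 0.07), which did not pass without DMSO replicate 2 (adjusted p = 0.061). Rps6, the substrate by which S6 kinase activity is usually read, was at 1089, 999.7 and 1049 CPM with BW723C86, against 1028, 1002 and 1029.6 CPM with DMSO. Its groups overlapped, and its log2 fold change of 0.04 (adjusted p = 0.56, SE 0.05) had a 95% interval of -0.06 to 0.14. Rps4x, an X-linked gene with a Y-linked partner in humans, was at 1072, 1099 and 1076 CPM with BW723C86, against 1139, 1126 and 1117 CPM with DMSO. The treated libraries were just below the DMSO libraries, but the log2 fold change of -0.06 (adjusted p = 0.28, SE 0.04, 95% interval -0.15 to 0.03) did not pass. Without BW723C86 replicate 2 it was lower at -0.09 (adjusted p = 0.011), and with total counts only as scaling at -0.13 (adjusted p = 0.022).

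All 3 stalk genes fell. The stalk of the large subunit, a pentamer of Rplp0 with copies of Rplp1 and Rplp2, recruits the GTP-hydrolysing translation factors. Rplp1 was at 1059, 830.5 and 968 CPM with BW723C86, against 1376, 1431 and 1306 CPM with DMSO, a log2 fold change of -0.53 (adjusted p = 0.00013, SE 0.08). Rplp2 was at 275, 207 and 250.3 CPM with BW723C86, against 335, 337 and 325 CPM with DMSO, a log2 fold change of -0.45 (adjusted p = 0.0016, SE 0.08). Rplp0, often used as a reference gene in qPCR, was at 3079, 2435 and 2849.7 CPM with BW723C86, against 3242, 3293 and 3195 CPM with DMSO, a log2 fold change of -0.22 (adjusted p = 0.024, SE 0.07). Its groups did not overlap, yet the call was lost without any one of the DMSO libraries, with adjusted p of 0.062 to 0.093.

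Per kilobase of annotated transcript, Rplp0 and Rplp1 had the highest level of any member in both groups. Rplp0 averaged 2053 CPM per kilobase with BW723C86 and 2388 with DMSO, and Rplp1 averaged 1908 with BW723C86 and 2747 with DMSO. Rplp0 thus stood above Rplp1 with BW723C86 and below it with DMSO. The next level with BW723C86 was that of Rpl10, at 1575 CPM per kilobase, and Rpl10 had 1451 with DMSO. At the other end stood Rpl3l and Rpl39l, at 0.47 and 0.26 CPM per kilobase with BW723C86 and at 0.56 and 0.20 with DMSO.

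In the rest of the large subunit, Rpl30, Rpl39 and Rpl36a had the most negative fold changes of the genes that fell. Rpl30, which in yeast binds its own transcript, was at 192, 206 and 206 CPM with BW723C86, against 298, 302 and 302 CPM with DMSO. The spread within either group was small beside this gap, and the log2 fold change was -0.58 (adjusted p = 3.1e-07, SE 0.04). Rpl39, a very short protein that lines the exit tunnel of the nascent chain, was at 157, 131 and 147 CPM with BW723C86, against 221, 223 and 200.5 CPM with DMSO, a log2 fold change of -0.57 (adjusted p = 1.6e-05, SE 0.07). Rpl36a, located at the exit site of transfer RNA, was at 136, 145 and 138 CPM with BW723C86, against 202, 203 and 196 CPM with DMSO, a log2 fold change of -0.52 (adjusted p = 8.4e-07, SE 0.04). For Rpl30 and Rpl36a replicate 2 was not the lowest treated library, unlike for Rpl39.

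Of the 7 genes for proteins around the tunnel exit, 4 fell: Rpl39, Rpl23a (log2 fold change -0.40), Rpl26 (-0.39) and Rpl31 (-0.31). Rpl35 (-0.15, adjusted p = 0.054), Rpl19 (-0.08, adjusted p = 0.43) and Rpl17 (0.20, adjusted p = 0.56) did not pass. Rpl35 passed as lower under several alternatives, among them without BW723C86 replicate 2 (-0.10, adjusted p = 0.022), and Rpl19 passed without BW723C86 replicate 1 (-0.17, adjusted p = 0.040). Rpl38, whose loss in Tail-short mice lowers translation of some Hox mRNAs, was at 68.8, 61.6 and 65.9 CPM with BW723C86, against 94.8, 89.2 and 85.3 CPM with DMSO, a log2 fold change of -0.46 (adjusted p = 3.2e-05, SE 0.06). Rpl13a, which in human monocytic cells leaves the ribosome after interferon gamma and silences inflammatory mRNAs, was at 975, 779 and 897 CPM with BW723C86, against 1213, 1244 and 1130.01 CPM with DMSO. No treated library of Rpl13a reached the DMSO range, and its log2 fold change was -0.44 (adjusted p = 0.00031, SE 0.07).

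Rpl5 and Rpl11 bind 5S ribosomal RNA together and, when free, inhibit Mdm2 and so stabilise p53. Rpl5 fell and Rpl11 did not pass, and the difference between them was not tested. Rpl5 was at 708, 791 and 752 CPM with BW723C86, against 911, 920.3 and 916 CPM with DMSO, a log2 fold change of -0.29 (adjusted p = 0.00035, SE 0.05). Rpl11 was at 543, 472 and 530.3 CPM with BW723C86, against 524, 529 and 504 CPM with DMSO. Its groups overlapped, with a log2 fold change of -0.01 (adjusted p = 0.90, SE 0.05, 95% interval -0.13 to 0.11).

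Rpl3 was the only member called higher. It is a protein close to the peptidyl transferase centre, where peptide bonds form. Rpl3 was at 1078, 983 and 1083 CPM with BW723C86, against 858, 857 and 858 CPM with DMSO. Every treated library was above every DMSO library, and the log2 fold change was 0.29 (adjusted p = 0.00031, SE 0.05). It did not pass against a null fold change of 1.2 (adjusted p = 0.35). Its most positive neighbours in fold change among core genes, Rpl17, Rpl10 (0.12, adjusted p = 0.097), Rpl10a (0.11, adjusted p = 0.26), Rpl28 (0.07, adjusted p = 0.41) and Rpl6 (0.07, adjusted p = 0.32), did not pass. Without BW723C86 replicate 2, Rpl10, Rpl10a, Rpl28 and Rpl6 passed as higher, with log2 fold changes of 0.15, 0.18, 0.14 and 0.09.

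Among members that fell, the smallest changes were in Rpl24, Rpl13, Rps25, Rps15 and Rpl7l1. Rpl24, which forms a bridge between the subunits, was at 360.3, 334 and 354 CPM with BW723C86, against 384, 387 and 374 CPM with DMSO, a log2 fold change of -0.13 (adjusted p = 0.038, SE 0.04). Rpl13 was at 1110.2, 973 and 1087 CPM with BW723C86, against 1178, 1208 and 1159 CPM with DMSO, a log2 fold change of -0.16 (adjusted p = 0.028, SE 0.05). Both calls were lost when any one DMSO library was left out, with adjusted p of 0.064 to 0.131. Rps25 was at 487, 442 and 468 CPM with BW723C86, against 541, 531 and 517 CPM with DMSO, and its log2 fold change was -0.19 (adjusted p = 0.0069, SE 0.05). This call was lost with GC and length trends removed (adjusted p = 0.10). Rps15, a head protein near the decoding centre, was at 576, 475 and 553 CPM with BW723C86, against 623, 619.5 and 589.7 CPM with DMSO, a log2 fold change of -0.19 (adjusted p = 0.028, SE 0.06), and its call was lost without any one of the DMSO libraries (adjusted p = 0.051 to 0.102). The groups did not overlap for any of these genes.

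Several members have a relative among the members that can take their place in some ribosomes. Rpl22, whose protein in mice represses Rpl22l1, was at 129, 116 and 132 CPM with BW723C86, against 156, 174 and 177 CPM with DMSO, a log2 fold change of -0.43 (adjusted p = 0.00010, SE 0.06). Rpl22l1 was at 24.4, 25.9 and 26.2 CPM with BW723C86, against 27.7, 28.8 and 26.6 CPM with DMSO, a log2 fold change of -0.12 (adjusted p = 0.17, SE 0.07). It was just below the DMSO range in each treated library and did not pass. Rps27 was at 126, 93.4 and 119 CPM with BW723C86, against 156, 143 and 155 CPM with DMSO, a log2 fold change of -0.43 (adjusted p = 0.0089, SE 0.10). Rps27l, a p53 target in human cells, was at 51.2, 46.5 and 49.9 CPM with BW723C86, against 56.6, 61.2 and 56.9 CPM with DMSO, a log2 fold change of -0.24 (adjusted p = 0.0046, SE 0.06). Both fell, and both calls were lost with GC and length trends removed (adjusted p = 0.051 for Rps27 and 0.062 for Rps27l). Rps27rt, at 30.6, 35.0 and 30.5 CPM with BW723C86 against 40.2, 49.5 and 33.4 CPM with DMSO, did not pass (log2 fold change -0.36, adjusted p = 0.058).

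Rpl36al, an autosomal relative of the X-linked Rpl36a, was at 99.1, 97.9 and 99.1 CPM with BW723C86, against 118, 117 and 119 CPM with DMSO, a log2 fold change of -0.26 (adjusted p = 0.00025, SE 0.04). Its libraries were nearly level within each group. Rpl7l1, a relative of Rpl7 with a part in large-subunit assembly, was at 103, 106 and 105 CPM with BW723C86, against 120.3, 122 and 117 CPM with DMSO, a log2 fold change of -0.20 (adjusted p = 0.0026, SE 0.04). Rpl7 itself had a log2 fold change of -0.35. The muscle gene Rpl3l was at 0.715, 0.681 and 0.540 CPM with BW723C86, against 0.849, 0.895 and 0.578 CPM with DMSO, and Rpl39l, known from male germ cells, was at 0.244, 0.250 and 0.135 CPM with BW723C86, against 0.296, 0.133 and 0.0514 CPM with DMSO. Neither passed, and the groups of both overlapped. Rps19bp1 had a log2 fold change of 0.13 (adjusted p = 0.29).

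Ribosomal protein genes have many processed pseudogenes of near-identical sequence, so the counting can move reads between a gene and its copies. The table held 215 rows with an Rpl or Rps symbol that were pseudogenes by name or not protein-coding, of which 131 were tested. They took 0.235%, 0.235% and 0.245% of all counts with BW723C86, against 0.295%, 0.286% and 0.280% with DMSO. Of the 131, 21 were lower and 5 higher, with a median log2 fold change of -0.22. These shares, 16.0% lower and 3.82% higher, stand against 20.7% and 21.3% of all tested genes. Of the 50 rows with a mean of at least 5 CPM, 15 (30.0%) were lower and 2 higher, with a median of -0.16. For Rpl21 and Rpl17 the named pseudogenes held 71.5% and 68.6% of the summed CPM of gene and copies, and for Rpl7a and Rps12 49.8% and 49.5%. Next came Rps10, Rpl9 and Rpl14, at 36.1%, 29.4% and 25.2%. Values of these genes are uncertain. Summed with its named pseudogenes, Rps10 had a log2 fold change of -0.54 (adjusted p = 0.00018).

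Rpl7a was at 332, 164 and 157 CPM with BW723C86, against 209, 238 and 292 CPM with DMSO, and its standard error of 0.38 was the widest among core genes. Its groups overlapped, with a log2 fold change of -0.18 (adjusted p = 0.76), and -0.07 (adjusted p = 0.58) when the gene was summed with its named pseudogenes. Without BW723C86 replicate 1, its highest library, Rpl7a was lower at -0.62 (adjusted p = 0.047). Rpl17 was at 303, 246 and 199.5 CPM with BW723C86, against 182, 266 and 205 CPM with DMSO. Summed with its pseudogenes it was at 717, 711 and 709 CPM with BW723C86, against 772, 788 and 756 CPM with DMSO. The sum was below the DMSO range in each treated library, and its log2 fold change was -0.12 (adjusted p = 0.036), of the opposite sign to the 0.20 of the gene alone. Rpl21 was at 26.3, 38.5 and 31.3 CPM with BW723C86, against 56.5, 39.3 and 42.0 CPM with DMSO, with a log2 fold change of -0.52 (adjusted p = 0.094) alone and -0.48 (adjusted p = 0.011) as a sum. Over all members, the sums gave 57 lower and 1 higher.

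Fau and Rack1 fell as most members did. Fau, whose product is cut into a ubiquitin-like protein and a small-subunit protein, was at 614, 489 and 581 CPM with BW723C86, against 718, 736 and 697 CPM with DMSO, a log2 fold change of -0.35 (adjusted p = 0.0013, SE 0.07). Rack1, a signalling scaffold on the head of the small subunit, was at 1871, 1499.8 and 1723 CPM with BW723C86, against 2065, 2143 and 2016 CPM with DMSO, a log2 fold change of -0.29 (adjusted p = 0.0041, SE 0.07).

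The 78 genes for proteins of the mitochondrial ribosome, which is built from other genes, are given beside them, with no test of the difference. Of these, 9 were lower, 7 higher and 62 did not pass, and their median log2 fold change was -0.02. Their median level relative to the DMSO mean was 0.05, -0.10 and 0.02 on the log2 scale in BW723C86 libraries, with replicate 2 again lowest, and 0.01, 0.00 and -0.02 in DMSO libraries.

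**Figure D5:**
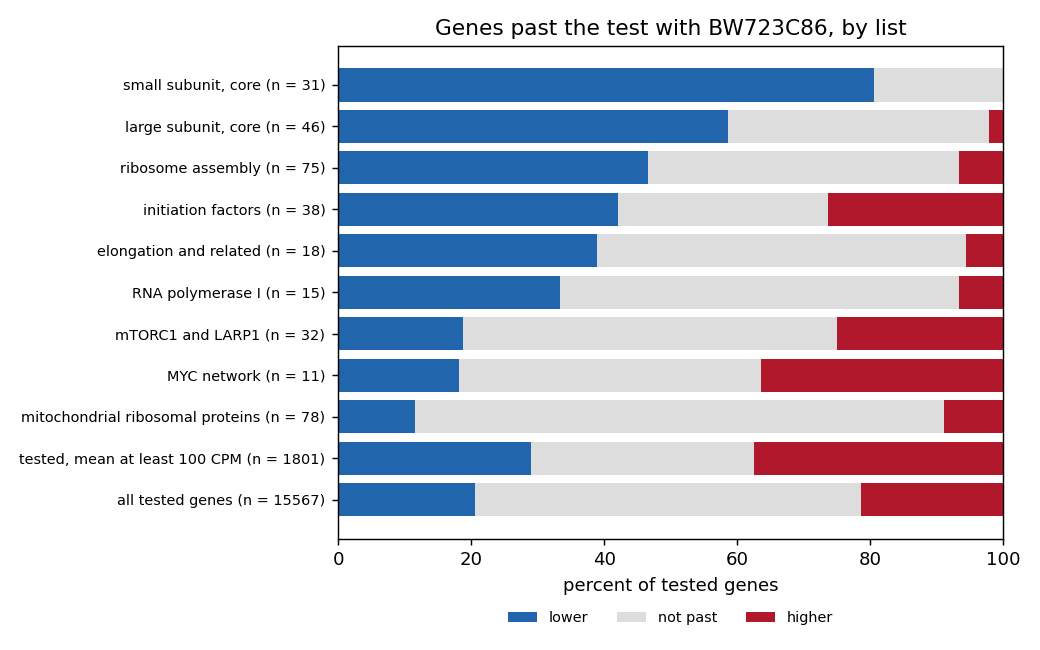
Percent of tested genes (x axis) that were lower, did not pass or were higher with BW723C86, for each gene list (rows, n in brackets). Small-subunit and large-subunit core genes were lower at 80.6% and 58.7%, ribosome assembly genes at 46.7%, mitochondrial ribosomal protein genes at 11.5% and all tested genes at 20.7%.

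Many genes that build ribosomes were lower as well. Of 75 ribosome assembly genes, 35 fell, 5 rose and 35 did not pass, with a median log2 fold change of -0.17. These shares, 46.7% lower and 6.67% higher, stand against 20.7% and 21.3% of all tested genes. Npm1, a nucleolar chaperone of subunit export, was at 187, 180.1 and 166 CPM with BW723C86, against 303, 289.6 and 307 CPM with DMSO, a log2 fold change of -0.75 (adjusted p = 1e-07, SE 0.05). Ncl, the nucleolar protein nucleolin, was at 153, 144 and 149 CPM with BW723C86, against 229, 220.1 and 237 CPM with DMSO, a log2 fold change of -0.62 (adjusted p = 2.5e-07, SE 0.05). Nop58, a core protein of box C/D particles that guide methylation of ribosomal RNA, was at 17.5, 16.7 and 18.6 CPM with BW723C86, against 29.9, 28.9 and 30.9 CPM with DMSO, a log2 fold change of -0.77 (adjusted p = 1.7e-06, SE 0.07). In all 3 the groups stood well apart.

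Of the 18 genes listed for RNA polymerase I, which transcribes the large ribosomal RNA precursor, 15 were tested. Of these, 5 (33.3%) fell, 1 (6.67%) rose and 9 did not pass (median log2 fold change -0.14), against 20.7% lower and 21.3% higher over all tested genes. Twistnb, a subunit of that polymerase, had 17.9, 20.4 and 18.8 CPM with BW723C86, against 32.2, 32.8 and 32.6 CPM with DMSO, a log2 fold change of -0.77 (adjusted p = 1.2e-06, SE 0.07). The termination factor gene Ttf1 fell by 0.63 on the log2 scale (adjusted p = 7.4e-05, SE 0.09), whereas Taf1c, of the promoter selectivity factor, rose by 0.47 (adjusted p = 0.0054, SE 0.11).

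Translation factor genes were called lower more often than all tested genes. Of 38 initiation factor genes, 16 (42.1%) fell, 10 (26.3%) rose and 12 did not pass (median -0.04). Of 18 elongation and related genes, 7 (38.9%) fell, 1 (5.56%) rose and 10 did not pass (median -0.10). Over all tested genes, 20.7% were lower and 21.3% higher. Eif2s2, the beta subunit of the factor that brings the initiator transfer RNA, was at 80.02, 83.4 and 73.3 CPM with BW723C86, against 123, 119 and 124 CPM with DMSO, a log2 fold change of -0.63 (adjusted p = 8e-07, SE 0.05). The initiation factor 3 genes Eif3j1 and Eif3e fell by 0.54 and 0.52 on the log2 scale (adjusted p = 2.7e-06 and 5.6e-06). Tpt1, itself a TOP mRNA, was at 1785, 1913 and 1806 CPM with BW723C86, against 2499, 2513 and 2415 CPM with DMSO, a log2 fold change of -0.43 (adjusted p = 6.2e-06, SE 0.05). Eif5a, which relieves stalling at prolines, and Abce1, which splits ribosomes after termination, fell by 0.55 and 0.48 (adjusted p = 1e-05 and 1.5e-05). The TOP mRNAs Eef1a1 and Eef2, chosen after their values were seen, did not pass, with log2 fold changes of 0.11 and 0.15 (both adjusted p = 0.069).

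Of 32 tested mTORC1 and LARP1 genes of 33 listed, which control ribosomal protein mRNAs, 6 fell, 8 rose and 18 did not pass (median 0.01). These shares, 18.8% lower and 25.0% higher, are near the 20.7% and 21.3% of all tested genes. Ddit4, an inhibitor of mTORC1 made under stress, was at 4.71, 3.98 and 4.49 CPM with BW723C86, against 9.64, 9.30 and 9.10 CPM with DMSO, a log2 fold change of -1.09 (adjusted p = 7.2e-06, SE 0.12). Tsc2, another inhibitor of the pathway, was at 78.3, 72.7 and 76.2 CPM with BW723C86, against 52.8, 56.0 and 53.9 CPM with DMSO, a log2 fold change of 0.48 (adjusted p = 7.8e-06, SE 0.05). Ddit4 and Tsc2 thus moved in opposite directions, and Deptor, which binds the kinase, fell by 0.42 (adjusted p = 4.6e-05, SE 0.06).

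Mtor, the kinase itself, was at 49.2, 52.5 and 50.7 CPM with BW723C86, against 43.8, 44.7 and 45.0 CPM with DMSO, a log2 fold change of 0.19 (adjusted p = 0.011, SE 0.05), which did not pass with GC and length trends removed (0.05, adjusted p = 0.43), without DMSO replicate 1 (adjusted p = 0.061) or with total counts only as scaling (adjusted p = 0.12). Larp1 was at 115, 120.2 and 119 CPM with BW723C86, against 122, 126 and 126 CPM with DMSO, a log2 fold change of -0.07 (adjusted p = 0.19), and without BW723C86 replicate 2 it was lower at -0.10 (adjusted p = 0.028). With those trends removed, Larp1 was lower at -0.20 (adjusted p = 0.00019), and Rps6kb1, the S6 kinase gene, was higher at 0.36 (adjusted p = 8.1e-05), against 0.11 (adjusted p = 0.17) as reported. Of 11 tested genes of the MYC network, which acts on promoters of ribosomal genes, 2 fell, 4 rose and 5 did not pass (median 0.12), with few genes to set against those shares. Myc was at 54.4, 56.1 and 52.8 CPM with BW723C86, against 51.9, 48.1 and 52.4 CPM with DMSO, and did not pass (log2 fold change 0.10, adjusted p = 0.17). Of the MYC antagonists, Mxd4 rose by 0.39 and Mxd1 and Mga fell by 0.49 and 0.36 on the log2 scale (adjusted p = 2.2e-05, 2.9e-05 and 0.0013).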

How the data were processed

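Poly(A) RNA of 6 samples was made into strand-marked paired-end libraries, per the labels' protocols. The submitters' processing notes name fastp, HISAT2, StringTie, edgeR and the builds GRCm39 and GRCh38. The authors deposited estimated counts per gene, all whole, so rounding changed none. Low values pile up at multiples of 4 (4 occurs 4613 times, 3 and 5 occur 2904 and 2552 times), so the counts per fragment are uncertain. The labels do not say whether reads were counted by strand. With counts divided by 4, the chi-square per degree of freedom between replicates was 2.46 to 8.88, above sampling noise, so all 6 were kept.

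Symbols came from a gene name table, and gene type, length and GC content from GENCODE M21. Genes were tested with edgeR 4.0.16 in R 4.3.3 (robust quasi-likelihood F test, TMM scaling, filter by expression in groups, two-sided), with Benjamini-Hochberg adjustment over 15567 genes. CPM are edgeR's counts scaled to TMM-adjusted library size. An SE is the fold change divided by the root of F, and a 95% interval uses the fitted degrees of freedom. The script was tested on simulated counts. Members and lists were chosen with earlier results of these data known. Full statistics went to the 6 members with the lowest and the 6 with the highest fold changes among those past the test, to a fixed panel, and to up to 3 genes of each other list with the smallest p. Alternatives included DESeq2 1.42.0, limma-voom (limma 3.58.1), other scalings and filters, offsets for GC content and length, a replicate block, and leaving out each library. No batch is labelled. A few genes that these rules name are not reported here.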

Additional observations from a re-analysis of the deposited data

How the results depend on the processing

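The 55 lower calls kept their direction under every setting run, and 43 of the 85 members, 41 of them core genes, were lower in all 21 settings other than the test against a fold change of 1.2. That test called 3208 genes changed, against 6534 as reported, with 23 members lower and 0 higher. With total counts only as scaling, the members' median was -0.33, against -0.26, while the median of all genes was -0.07. Members called higher were 2 with GC and length trends removed and 2 with the replicate block as well, Rpl10 being added to Rpl3. Leaving out each library in turn gave 5387 to 7153 changed genes, 47 to 62 members lower, 1 to 5 higher (5 without BW723C86 replicate 2) and a median of -0.30 to -0.24. Rpl17 changed sign, to -0.12, when summed with its pseudogenes, an alternative chosen after seeing the data. The cause was not tested for any of these. The replicate block gave 6179 changed genes and 55 members lower, with Rpl24 lost (adjusted p = 0.082) and Rps27rt gained (0.0033). Same-numbered libraries did not deviate together (correlations 0.03, -0.02 and -0.00). With 3 libraries per group this cannot show whether the same number marks a shared culture or run. The 3 libraries per group and the uncertain counts per fragment limit precision for Rpl3l and Rpl39l, the members below 1 CPM.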

Other observations

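A few pseudogene rows moved apart from the genes they are named for. Rpl30-ps8 was at 5.25, 5.14 and 5.27 CPM with BW723C86, against 1.72, 1.48 and 0.681 CPM with DMSO, a log2 fold change of 2.02 (adjusted p = 5.6e-05, SE 0.27), while Rpl30 itself was lower by 0.58. Rpl30-ps1, Rpl30-ps9 and Rpl30-ps10 had log2 fold changes of 1.77, 1.63 and 1.71 (adjusted p = 0.00025, 0.00079 and 0.00038). DMSO replicate 3 was the lowest library for each of these 4 rows. The 8 pseudogenes named for Rpl30 summed to 22.2, 21.5 and 20.9 CPM with BW723C86, against 7.99, 7.73 and 3.55 CPM with DMSO, and gene and pseudogenes together had a log2 fold change of -0.46 (adjusted p = 2e-06). The fifth pseudogene row called higher, Rpl3-ps1, was at 42.8, 39.7 and 37.2 CPM with BW723C86, against 35.4, 31.1 and 33.7 CPM with DMSO (log2 fold change 0.26, adjusted p = 0.011), and its namesake Rpl3 was the member called higher. Rps26-ps1 was at 1.31, 1.68 and 1.47 CPM with BW723C86, against 3.23, 6.57 and 2.93 CPM with DMSO (log2 fold change -1.504, adjusted p = 0.00097), whereas Rps26 did not pass (adjusted p = 0.95). These rows were chosen after their values were seen, and shared reads between copies were not tested.

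Rps10-ps2, one of the most abundant pseudogene rows, was at 234, 179 and 219 CPM with BW723C86, against 305, 316 and 286 CPM with DMSO, and its log2 fold change of -0.52 (adjusted p = 0.00068) stands beside the -0.53 of Rps10.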
